A study of Mus musculus with 6 samples.

Results

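The epithelial-mesenchymal transition genes described here are 10 named genes out of 26167 listed by symbol for each tumor. They comprise the epithelial surface proteins Cdh1 and Epcam, the mesenchymal markers Cdh2 and Vim, and the transcription factors Snai1, Snai2, Zeb1, Zeb2, Twist1, and Twist2. All 10 were found by exact symbol, and all 10 passed the minimum of 10 counts in at least 3 tumors. RNA was sequenced from 3 control and 3 Sora-treated Hepa1-6 tumors (called Hep1-6 in the sample labels), which grew under the skin of female C57BL/6J mice aged 6 to 8 weeks. Sora (sorafenib, an inhibitor of RAF kinases and of the VEGF and PDGF receptors) was given by intraperitoneal injection at 10 mg/kg on days 9, 11, 13, and 15 after the cells were implanted. What the control mice received is not given in the sources used here. Hepa1-6 is a mouse hepatoma cell line, so each tumor held cells of this line together with vessels, fibroblasts, and immune cells of the mouse. Tumors carry the numbers of their labels, 1, 3, and 4 in the control group and 2, 3, and 4 in the Sora group. The labels do not say whether each came from its own mouse, so the p-values measure only the spread between these samples.

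The 6 libraries held between 31073830 and 36205814 counted reads. For 5 tumors the counts were deposited. Those of Sora-treated tumor 4 were recovered here by multiplying FPKM back with gene lengths, so every value for 6 tumors includes 1 recovered tumor. Libraries of the same group correlated at r = 0.991 to 0.994 across genes, and libraries of different groups at 0.983 to 0.991. Of the hepatoma markers, all 12 were detected in every tumor, with Afp (alpha-fetoprotein, made by fetal liver and hepatoma cells) at 655 CPM or more and Alb (albumin) at 1994 to 3510 CPM, while Apoa2 (0.90 CPM at its lowest) and Ttr (1.85 to 11.5 CPM), abundant in normal liver, were low. CPM, the counts of a gene scaled to a common library size after TMM normalization, is the level used within a gene, and FPKM, which also divides by gene length, is the level used between genes.

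Epithelial cells are held together by junctions built on E-cadherin, the product of Cdh1. In the epithelial-mesenchymal transition, cells lose these junctions, take on N-cadherin (Cdh2) and the intermediate filament vimentin (Vim), and become motile. The SNAIL factors (Snai1, Snai2), ZEB factors (Zeb1, Zeb2), and TWIST factors (Twist1, Twist2) are DNA-binding proteins that drive it. The SNAIL and ZEB proteins repress Cdh1 by binding E-box motifs near its start. In liver, hepatocytes carry both E-cadherin and N-cadherin, while EpCAM marks fetal liver progenitors, bile duct cells, and part of the liver cancers. Fibroblasts, endothelial cells, and many leukocytes express Vim, Zeb1, and Zeb2 without having passed through any such transition, and keratinocytes express Cdh1.

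The E-box bound by SNAIL and ZEB proteins, CAGGTG or CACCTG on the other strand, was searched for in the 250 bases before the RefSeq start sites of the genes (GRCm38.p6). RefSeq promoter sequences were matched for 6 genes, Epcam, Snai1, Twist1, Twist2, Vim, and Zeb2, and were not matched for the other 4. The motif was found for Snai1 and Epcam. Both windows are shown, with the motif in capitals, because they hold the letters that the SNAIL and ZEB proteins are known to bind. The Snai1 window lies at chr2:167537945-167538194 on the + strand and holds 1 E-box, which begins 126 bases before the start. The Epcam window lies at chr17:87635729-87635978 on the + strand and holds an E-box 187 bases and another 19 bases before the start.
Snai1: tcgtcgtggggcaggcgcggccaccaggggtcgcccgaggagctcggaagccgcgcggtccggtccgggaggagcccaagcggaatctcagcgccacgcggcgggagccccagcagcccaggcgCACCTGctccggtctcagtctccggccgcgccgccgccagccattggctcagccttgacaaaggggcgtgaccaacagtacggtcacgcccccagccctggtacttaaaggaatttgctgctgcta
Epcam: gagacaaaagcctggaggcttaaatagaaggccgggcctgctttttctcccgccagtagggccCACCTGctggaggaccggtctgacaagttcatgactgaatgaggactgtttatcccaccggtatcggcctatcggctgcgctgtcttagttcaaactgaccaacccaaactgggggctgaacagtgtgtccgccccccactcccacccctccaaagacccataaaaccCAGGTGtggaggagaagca
Of all 32851 RefSeq windows of this length, 17.2% hold at least 1 such E-box. None was found in the single windows of Vim, Twist1, and Twist2 or in the 4 windows of Zeb2, which says only that these letters are absent there. No binding was measured in this study.

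Of the 10 genes, 1 passed the test for a change with Sora, Cdh2, which rose 1.38-fold. This was tested with edgeR's quasi-likelihood test at a Benjamini-Hochberg adjusted p under 0.05, with which 3.29% of all 16513 genes tested were called and 1.94% were called as higher in Sora-treated tumors. No member changed by more than 2-fold, and 0.751% of all genes were called past that limit. With unadjusted p, 3 of the 10 members lay under 0.05 (Cdh2, Snai1, and Zeb2), beside 17.2% of all genes. In CPM, 2 members (Cdh2 and Snai1) lay higher in every Sora-treated tumor than in every control tumor, 1 (Zeb2) lay lower, and in 7 the groups overlapped, whereas the groups did not overlap for 22.2% of all genes. DESeq2 also called 1 member, Cdh2, beside 7.71% of the 15490 genes to which it gave an adjusted p. The median log2 fold change was 0.10 over the 10 members and -0.00037 over all genes tested.

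**Figure D1:**
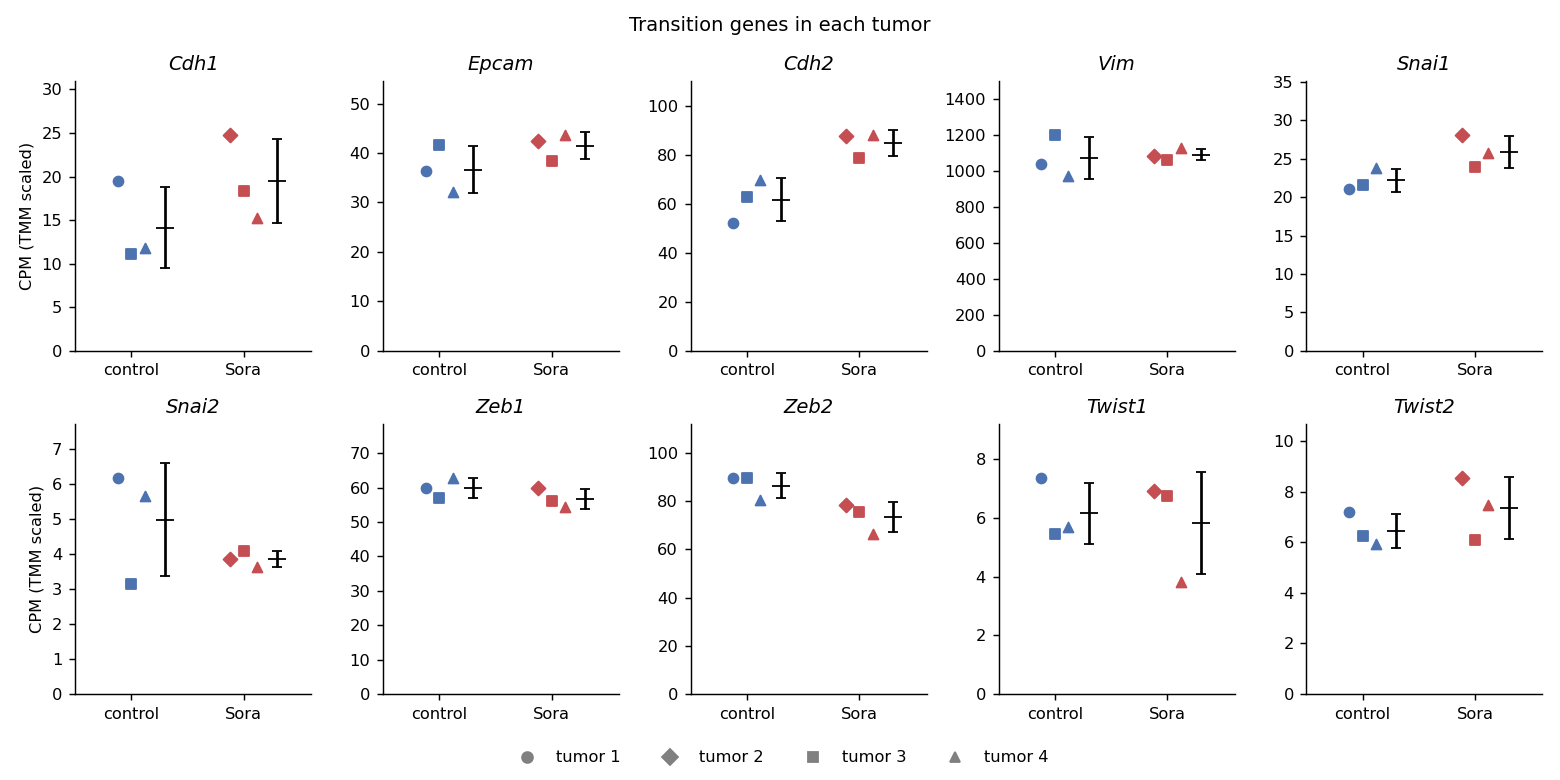
CPM of each gene in each tumor, with control tumors in blue, Sora-treated tumors in red, a marker shape for each tumor number, and bars for mean and SD (n = 3); all axes start at 0. The groups are apart for Cdh2, Snai1, and Zeb2, with the narrowest gap in Snai1, where the highest control tumor was at 23.8 and the lowest Sora-treated tumor at 24.0 CPM.

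Neither epithelial gene passed the test, and both had their higher mean in Sora-treated tumors. Cdh1 (chromosome 8), which encodes E-cadherin, stood at 19.5, 11.1, and 11.8 CPM in control tumors 1, 3, and 4 and at 24.8, 18.3, and 15.3 CPM in Sora-treated tumors 2, 3, and 4. The groups overlapped because control tumor 1 lay above Sora-treated tumors 3 and 4. The mean was 14.1 ± 4.63 CPM (SD, n = 3) in control and 19.5 ± 4.85 CPM in Sora-treated tumors. The log2 fold change of 0.46 (SE 0.22, 95% interval -0.03 to 0.95) did not pass edgeR's test (adjusted p = 0.32). The interval holds no decrease beyond 0.03 on the log2 scale and reaches almost to a doubling. The value ranged from 0.25 to 0.76 as single tumors were left out, with the lowest value without Sora-treated tumor 2 and the highest without control tumor 1.

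Cdh1 was highest in the tumors with the most RNA of skin genes. The summed level of 14 keratinocyte and skin markers was 1521, 523, and 620 CPM in control tumors 1, 3, and 4 and 1397 (Sora 2), 1056 (Sora 3), and 1002 (Sora 4) CPM in the treated tumors. Control tumor 1 and Sora-treated tumor 2 were the highest in both measures. All 14 markers had a log2 fold change above 0, with a median of 0.41. None was called by edgeR or DESeq2, 1 (7.14%, beside 17.2% of all genes) had an unadjusted p under 0.05 in edgeR, and none was at 0 in any tumor. By a fixed rule, the 3 genes most like Cdh1 over the 6 tumors among 14112 genes were Fam25a (Pearson r = 0.994 on log2(CPM + 1)), Itgb8 (0.993), and Trp63 (0.991). Trp63 encodes p63, the transcription factor of basal keratinocytes, and is itself in the skin list. It stood at 10.3, 3.65, and 4.44 CPM in control tumors and 12.9, 8.19, and 6.10 CPM in Sora-treated tumors. The part of skin in the Cdh1 level was not tested. In bulk tissue, fewer cells of a type and less RNA per cell cannot be told apart, here and in every value that follows.

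Epcam (chromosome 17), which encodes a homophilic adhesion molecule of epithelial and progenitor cells, stood at 36.3, 41.5, and 32.0 CPM in control and at 42.4, 38.4, and 43.7 CPM in Sora-treated tumors. Sora-treated tumors 2 and 4 were above every control tumor, and Sora-treated tumor 3 lay below control tumor 3. The log2 fold change was 0.18 (SE 0.10, 95% interval -0.05 to 0.41, adjusted p = 0.416 in edgeR), and it was 0.09 without control tumor 4 and 0.28 without control tumor 3. Epcam did not follow the skin markers in control tumor 1, which was highest for skin genes and in the middle of its group for Epcam.

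Cdh2 (chromosome 18) rose. N-cadherin joins cells of mesenchyme, heart, and nerve, and it is also a junction protein of hepatocytes. Its level was 52.2, 62.9, and 69.6 CPM in control tumors and 87.9, 78.6, and 88.1 CPM in Sora-treated tumors, so every treated tumor lay above every control tumor. The mean went from 61.6 ± 8.78 to 84.9 ± 5.39 CPM (SD, n = 3 each). The log2 fold change was 0.46 (SE 0.10, 95% interval 0.23 to 0.69, adjusted p = 0.0393 in edgeR and 0.00121 in DESeq2). Cdh1 and Cdh2 had the same log2 fold change to 2 decimals, with a standard error of 0.22 for Cdh1 and 0.10 for Cdh2.

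The call of Cdh2 depended on the method and on single tumors. It was lost with limma on log2(FPKM + 1) (adjusted p = 0.0854), log2(FPKM + 0.1) (0.114), or log2(FPKM + 1) over all genes (0.206), and in edgeR with a block for the replicate number (log2 fold change 0.33, adjusted p = 0.324). Numbers 1 and 2 each occur in only 1 group, so with this block the comparison rests on tumors 3 and 4 of both groups. Of all genes, 198, 38, 0, and 125 were called in these fits, in this order, beside 543 in the main fit. The call of Cdh2 was also lost in edgeR without control tumor 1 (adjusted p = 0.0991), control tumor 3 (0.0779), Sora-treated tumor 2 (0.13), or Sora-treated tumor 4 (0.172). Calls over all genes fell to 174, 316, 117, and 5 in these fits, in this order. Cdh2 stayed called without control tumor 4 (0.0446) or Sora-treated tumor 3 (0.0233), where 176 and 1145 of all genes were called. Its log2 fold change stayed between 0.36 and 0.56 as single tumors were left out. With the 5 deposited tumors alone, DESeq2 gave an adjusted p of 0.0416.

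While Cdh2 rose, the summed fibroblast markers lay lower in every Sora-treated tumor than in every control tumor. The 12 fibroblast markers summed to 8317 to 8490 CPM in control and 5753 to 7207 CPM in Sora-treated tumors. In log2 fold change, 11 of 12 were below 0, with a median of -0.21. Called were 2 (Postn and Mfap5, 16.7% beside 3.29% of all genes), and 5 (41.7%, beside 17.2%) had an unadjusted p under 0.05. DESeq2 called 5 of the 12, beside 7.71% of all genes. The sum is mostly Dcn and the collagens Col1a1, Col1a2, and Col3a1. The groups were apart in 5 of the 12 genes (beside 22.2% of all genes), the 3 collagens (log2 fold changes -0.42, -0.47, and -0.42, none called by edgeR), Postn, and Mfap5. They overlapped in the other 7, among them the fibroblast receptors Pdgfra (-0.03) and Pdgfrb (-0.09) and the proteoglycan Dcn (0.03). Postn, a matrix protein of activated fibroblasts, fell by 0.68 (adjusted p = 0.0167), and Mfap5, a microfibril protein, fell by 0.48 on the log2 scale (adjusted p = 0.0226). Both fibroblast calls were lost with limma on log2(FPKM + 0.1) (adjusted p = 0.0819 for Postn and 0.0735 for Mfap5), and in edgeR without Sora-treated tumor 4 (adjusted p = 0.0965 for Postn and 0.118 for Mfap5). That of Mfap5 was also lost with a block for the replicate number (0.269) and without control tumor 1 (0.0703), 3 (0.0534), or 4 (0.0663) or Sora-treated tumor 2 (0.0948). None of the 12 was at 0 in any tumor. The part of each cell type in the Cdh2 level was not tested.

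Vim (chromosome 2) was the most abundant member and did not pass the test. It stood at 1038, 1201, and 975 CPM in control and at 1083, 1063, and 1126 CPM in Sora-treated tumors, with all treated tumors inside the range of the controls. The mean was 1071 ± 117 CPM in control and 1091 ± 31.9 CPM in Sora-treated tumors (SD, n = 3 each). The log2 fold change was 0.03 (SE 0.09, 95% interval -0.18 to 0.23, adjusted p = 0.921 in edgeR), so a change of Vim beyond 0.23 in either direction lay outside the interval. Its sign turned to -0.04 without control tumor 4. The 3 genes most like Vim over the 6 tumors were Mxd3 (Pearson r = 0.996), Ndufb4 (0.996), and Cox17 (0.993), which encode a transcriptional repressor of the MAX network, a subunit of respiratory complex I, and a copper chaperone of cytochrome oxidase.

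**Figure D2:**
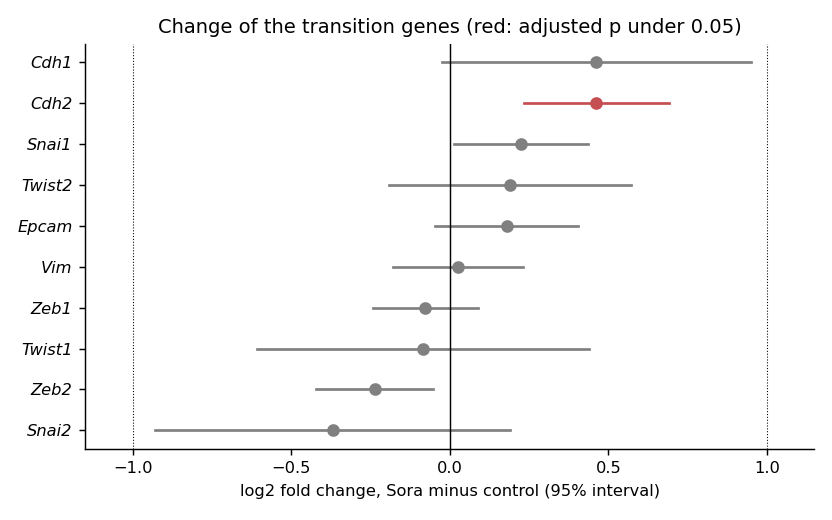
Log2 fold change of each gene (points, Sora minus control) with its 95% interval (lines) from edgeR, with dotted lines at a 2-fold change in either direction. Only the interval of Cdh2, in red, belongs to a gene with an adjusted p under 0.05, those of Snai1 and Zeb2 leave out 0 without passing the adjusted test, and all 10 lie inside 2-fold.

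The SNAIL genes differed from each other in level. Snai1 (chromosome 2), the founding repressor of the family, stood at 21.1, 21.6, and 23.8 CPM in control and 28.1, 24.0, and 25.7 CPM in Sora-treated tumors. The groups did not overlap, with a gap smaller than the spread within either. The log2 fold change was 0.22 (SE 0.10, 95% interval 0.01 to 0.44, unadjusted p = 0.0389, adjusted p = 0.254 in edgeR). Snai2 (chromosome 16), which encodes SLUG, a factor also used by neural crest and basal keratinocytes, stood at 6.17, 3.13, and 5.65 CPM in control and 3.87, 4.08, and 3.62 CPM in Sora-treated tumors. The control tumors spread on both sides of the treated ones, and the log2 fold change of -0.37 (SE 0.25, 95% interval -0.93 to 0.19) had an adjusted p of 0.508 in edgeR. It was -0.19 without control tumor 1 and -0.61 without control tumor 3. Snai2 had the fewest reads of the 10 genes, 102 to 206 per tumor. Counting error alone was up to 9.90% of a value, whereas the 3 controls varied by 32.6% (CV).

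The ZEB genes varied little among tumors of a group, by 4.83% to 8.36% (CV). Zeb1 (chromosome 18) stood at 60.0, 57.0, and 62.8 CPM in control and 59.9, 56.2, and 54.3 CPM in Sora-treated tumors, and the groups overlapped. Its log2 fold change of -0.08 (SE 0.07, 95% interval -0.24 to 0.09) had an adjusted p of 0.666 in edgeR and ranged from -0.12 (without Sora-treated tumor 2) to -0.04 (without control tumor 4), and it was the member with the smallest standard error. Zeb2 (chromosome 2) was at 89.4, 89.5, and 80.5 CPM in control and 78.3, 75.3, and 66.5 CPM in Sora-treated tumors, so every treated tumor lay below every control tumor. The means were 86.5 ± 5.19 and 73.4 ± 6.13 CPM (SD, n = 3 each). In edgeR, the log2 fold change was -0.24 (SE 0.08, 95% interval -0.42 to -0.05). It did not pass the test (adjusted p = 0.165 in edgeR, and 0.0168 before adjustment).

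Zeb2, which macrophages and other leukocytes use as a transcription factor of their own, lay lower in the same tumors as the sums of leukocyte and fibroblast genes. The 12 leukocyte markers summed to 3164 to 3417 CPM in control and 2610 to 3137 CPM in Sora-treated tumors. All 12 had a log2 fold change below 0, with a median of -0.21, and none was at 0 in any tumor. None was called by edgeR, with 7 (58.3%, beside 17.2% of all genes) at an unadjusted p under 0.05. DESeq2 called 3 of the 12, beside 7.71% of all genes. Among treated tumors, the leukocyte sum was lowest in tumor 2 (2610 CPM, against 3137 in tumor 3 and 2866 in tumor 4), the one with the highest Zeb2. The fibroblast sums given beside Cdh2 (mostly collagens and Dcn) did not overlap between the groups either, and Sora-treated tumor 4 was lowest in both Zeb2 and the fibroblast sum. Sora-treated tumors 2 and 3 ran opposite ways, with fibroblast sums of 6969 and 7207 CPM and Zeb2 at 78.3 and 75.3 CPM. Among controls, Zeb2 was lowest in tumor 4 and the fibroblast sum in tumor 3. The part of these cells in the Zeb2 level was not tested. Zeb2 has an antisense neighbor, Zeb2os, with 103 to 162 reads per tumor beside 2203 to 2936 for Zeb2, and 181 bases of their exons overlap in the GENCODE M21 annotation. The use of strand in counting is not given in the sources used here, and without strand their reads cannot be told apart. Gm10125, which overlaps Zeb1, had 0 to 8 reads per tumor.

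**Figure D3:**
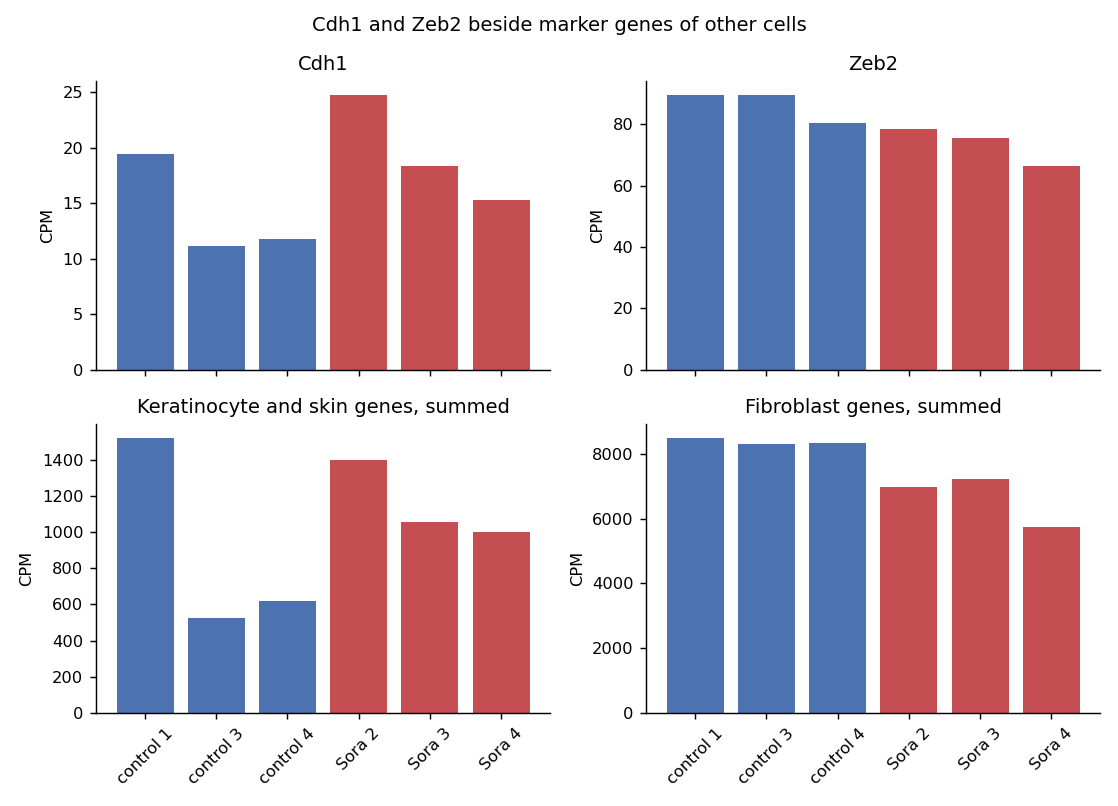
Bars of CPM in each tumor, control in blue and Sora-treated in red, for Cdh1 above the sum of 14 keratinocyte and skin genes (left) and for Zeb2 above the sum of 12 fibroblast genes (right). Control tumor 1 and Sora-treated tumor 2 are highest in both left panels, and all 3 Sora-treated tumors are below the controls in both right panels.

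The TWIST genes were low and did not separate the groups. Twist1 (chromosome 12), a basic helix-loop-helix factor of mesoderm, stood at 7.35, 5.43, and 5.70 CPM in control and 6.91, 6.73, and 3.80 CPM in Sora-treated tumors. Sora-treated tumor 4 alone was below the controls, and the log2 fold change of -0.08 (SE 0.24, 95% interval -0.61 to 0.44, adjusted p = 0.899 in edgeR) became 0.15 without that tumor and 0.06 without control tumor 1. Twist2 (chromosome 1), its close relative in dermal and mesenchymal cells, stood at 7.20, 6.23, and 5.92 CPM in control and 8.54, 6.08, and 7.46 CPM in Sora-treated tumors. Its log2 fold change was 0.19 (SE 0.17, 95% interval -0.19 to 0.57, adjusted p = 0.644 in edgeR), and leaving out Sora-treated tumor 2 gave 0.07 and leaving out tumor 3 of that group gave 0.31. The reads behind these values were 126 to 236 for Twist1 and 203 to 267 for Twist2. In GENCODE M21, exons of Twist2 and of the antisense gene Gm29100, which is not in the data, overlap by up to 1468 bases. The strand limit given for Zeb2 holds there too.

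On the scale per gene length, Vim stood far above the other members, at a mean of 589 FPKM (535 to 639 over the 6 tumors). Epcam followed at 18.9 (15.7 to 20.7) and Snai1 at 14.8 FPKM (13.02 to 17.45), so that an epithelial surface gene and a repressor of epithelial genes were the most abundant after Vim. Zeb2 was at 8.33 (6.73 to 9.56), Cdh2 at 7.33 (5.38 to 8.88), and Twist2 at 5.17 FPKM (4.47 to 6.44). The lowest were Cdh1 at 3.80 (2.45 to 5.63), Twist1 at 3.69 (2.27 to 4.63), Snai2 at 2.18 (1.51 to 3.12), and Zeb1 at 1.41 FPKM (1.28 to 1.53). The ranges of neighbors in this order were separate only between Vim and Epcam and between Snai1 and Zeb2, and for the other 7 neighboring pairs they overlapped. Zeb2 exceeded Cdh2 in 3 of 6 tumors and Cdh1 exceeded Twist1 in 3 of 6.

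The order depended on the gene lengths behind the FPKM. The deposited values imply a length of 41309 bases for Zeb1, 4.02 times the 10266 bases that its exons cover in GENCODE M21. With the lengths of GENCODE for all 10 genes, Zeb1 would stand at 5.13 to 6.16 FPKM (mean 5.69) and rank 5 in place of 10. Zeb2 would have a mean of 4.01 FPKM and rank 6 in place of 4, and Twist2 a mean of 2.17 FPKM and rank 10 in place of 6. Cdh2, Twist1, and Cdh1 would shift by 1 rank, and Vim, Epcam, Snai1, and Snai2 would keep theirs. Of 19990 genes compared, 8.55% had an implied length over 2 times that of GENCODE. For Vim (1834 against 4743 bases), Zeb2 (9598 against 19942), and Twist2 (1335 against 3174), the implied length was shorter. Such lengths do not touch a comparison of the same gene between tumors.

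**Figure D4:**
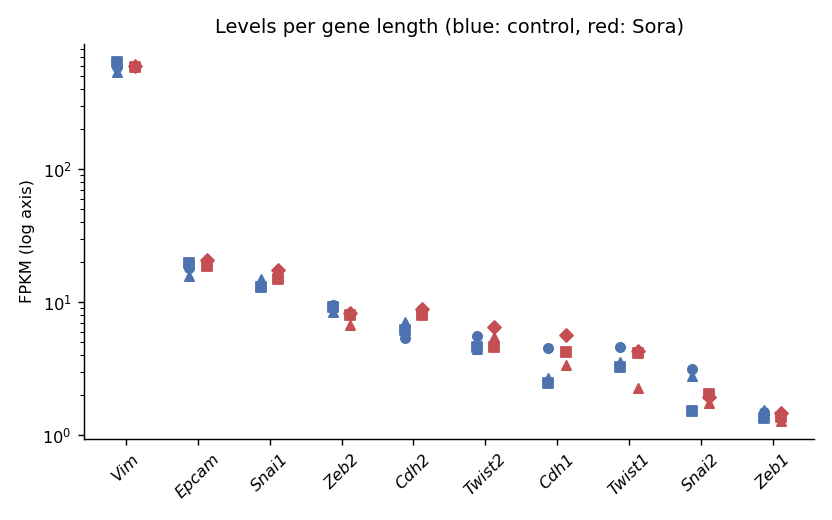
FPKM of the 10 genes in each tumor on a log axis, ordered by mean, with control tumors in blue, Sora-treated tumors in red, and a marker shape for each tumor number as in the plot of CPM. Vim, from 535 to 639 FPKM, is separate from all others, and the rest lie between 1.28 and 20.7 FPKM with overlapping neighbors except Snai1 and Zeb2.

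Ratios within a tumor, taken on FPKM, set each mesenchymal gene against an epithelial one. The ratio of Cdh2 to Cdh1 was 1.19, 2.52, and 2.62 in control and 1.58, 1.91, and 2.56 in Sora-treated tumors. These groups overlapped, with the lowest ratio in control tumor 1. The ratio of Vim to Epcam was 32.1, 32.5, and 34.2 in control and 28.7, 31.15, and 29.0 in Sora-treated tumors, so it lay lower in every treated tumor. Between the paired transcription factors, the groups overlapped in every ratio. Zeb2 to Zeb1 was 5.52 to 6.76 in control and 5.27 to 5.77 in Sora-treated tumors, Snai1 to Snai2 was 4.28 to 8.65 and 7.36 to 9.10, and Twist2 to Twist1 was 1.20 to 1.40 and 1.10 to 2.39. The size of such a ratio rests on the implied lengths, and with those of GENCODE the ratio of Zeb2 to Zeb1 would be 0.66 to 0.81 in control and 0.63 to 0.69 in Sora-treated tumors, so that Zeb1 would exceed Zeb2. These ratios are given as a description without a test, since an exact permutation test of 3 tumors against 3 cannot give a two-sided p under 0.1.

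Beyond the 10 members, 162 genes in 6 lists ordered by role were examined, of which 159 were in the data and 153 were tested. Of these, 7 were called, 6 higher and 1 lower, which is 4.58% beside 3.29% of all genes. The median log2 fold change was 0.06, beside -0.00037 over all genes. The shares of each list called and with an unadjusted p under 0.05, given below in percent, are to be read beside the 3.29% and 17.2% of all genes. The called genes were Cldn2 among the junction proteins, Sox9 and Foxq1 among the transcription factors, Wnt5a and Mmp2 among the mesenchymal proteins, and Ccn2 and Smad7 in TGF-beta signaling. Without Sora-treated tumor 4, none of the 7 was called (edgeR adjusted p = 0.0601 to 0.134), beside 5 of all 16319 genes. DESeq2 called 17 genes of these lists with all 6 tumors (beside 7.71% of all genes) and 7 with the 5 deposited ones (beside 478 of all genes). Without Sora-treated tumor 3 edgeR called 15 (beside 1145 of all 16295 genes), and without control tumor 4 it called 4 (beside 176 of all 16318). Other calls lost without a single tumor were those of Cldn2 (Sora 2), Sox9 (control 1, 3, or 4), Foxq1 (control 1 or 4, or Sora 2), and Smad7 (control 1 or 4). With limma on log2(FPKM + 0.1) none of the 7 was called (adjusted p = 0.0608 to 0.0925), and with a replicate block 4 were, without Cldn2 (0.116), Foxq1 (0.15), and Smad7 (0.0577). Over all genes, 38 and 125 were called in these fits.

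Of 34 epithelial junction genes tested, 1 rose (2.94%) and none fell, with 23 above and 11 below 0 in log2 fold change, a median of 0.05, and 6 (17.6%) at an unadjusted p under 0.05. Both shares were near those of all genes. Cldn2, a claudin that makes tight junctions permeable to cations and water, was at 22.7, 29.6, and 30.2 CPM in control and 46.3, 39.2, and 47.1 CPM in Sora-treated tumors, a log2 fold change of 0.68 (SE 0.12, adjusted p = 0.0182 in edgeR). The groups did not overlap. Scrib, a scaffold of cell polarity, had a log2 fold change of 0.31 without passing the test (adjusted p = 0.064). Ctnnb1, which encodes beta-catenin, the partner of both cadherins, was the most abundant per length of the list, and its log2 fold change was 0.15 (adjusted p = 0.345).

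None of 15 epithelial gene regulators was called by edgeR and 1 by DESeq2, beside 7.71% of all genes with DESeq2. Of the 15, 8 were above and 7 below 0, with a median of 0.08, and 4 (26.7%) had an unadjusted p under 0.05. Elf3, an ETS factor of epithelia, had the smallest p, with 29.2, 33.9, and 27.3 CPM in control and 17.7, 26.4, and 19.4 CPM in Sora-treated tumors. Every treated tumor was below every control, and the log2 fold change of -0.51 (SE 0.14) had an adjusted p of 0.0849 in edgeR and 0.0133 in DESeq2. Tfcp2l1, a factor related to the Grainyhead family, had a log2 fold change of -0.24 (adjusted p = 0.191). Foxa2, a pioneer factor of hepatocytes and the most abundant per length of the list, had one of 0.18 (adjusted p = 0.336).

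Among 23 other transcription factors of the transition, 2 rose (8.70%) and none fell, with 13 above and 10 below 0, a median of 0.05, and 6 (26.1%) at an unadjusted p under 0.05. Sox9, a factor of liver progenitors and bile ducts, was at 74.4, 76.5, and 86.7 CPM in control and 123, 107, and 164 CPM in Sora-treated tumors, a log2 fold change of 0.73 (SE 0.14, adjusted p = 0.0211 in edgeR). Foxq1, a forkhead factor, was at 54.4, 66.2, and 69.1 CPM in control and 87.8, 83.6, and 102 CPM in Sora-treated tumors, a log2 fold change of 0.53 (SE 0.11, adjusted p = 0.0268). Both genes lay apart in the groups, with their highest values in Sora-treated tumor 4. Both calls were lost with limma on log2(FPKM + 1) (adjusted p = 0.0563 for Sox9 and 0.056 for Foxq1) and log2(FPKM + 0.1) (0.0925 and 0.0899), and that of Foxq1 with a replicate block (0.15). Sox4, the most abundant per length of the list, had a log2 fold change of 0.18 (adjusted p = 0.29).

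The corepressors that SNAIL, ZEB, and TWIST factors recruit to chromatin had the list median nearest to 0. None of 20 was called by edgeR and 1 by DESeq2, beside 7.71% of all genes with DESeq2. Of the 20, 13 were above and 7 below 0, the median was 0.02, and 2 had an unadjusted p under 0.05 in edgeR. Those were Suv39h1, a histone H3 methyltransferase (log2 fold change 0.29, adjusted p = 0.103 in edgeR and 0.0398 in DESeq2), and Ctbp2, a partner of the ZEB proteins (0.34, adjusted p = 0.156). Ctbp1, its more abundant relative, was at 129 ± 3.29 CPM in control and 130 ± 1.77 CPM in Sora-treated tumors (SD, n = 3 each), with a log2 fold change of 0.01 (adjusted p = 0.974) whose sign turned with total-count scaling and on the FPKM scale.

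Of 33 mesenchymal proteins, 1 rose and 1 fell (6.06% called), with 19 above and 14 below 0, a median of 0.08, and 11 (33.3%) at an unadjusted p under 0.05. Wnt5a, a Wnt ligand that acts mostly without beta-catenin, went from 32.1, 33.0, and 37.2 CPM in control to 60.4, 49.6, and 57.8 CPM in Sora-treated tumors, a log2 fold change of 0.71 (SE 0.10, adjusted p = 0.0085 in edgeR). The groups did not overlap, and Sora-treated tumor 3 was the lowest of the treated tumors.

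Mmp2, a gelatinase secreted mainly by stromal cells, moved the other way. It went from 106 ± 5.81 CPM in control to 68.6 ± 8.51 CPM in Sora-treated tumors (SD, n = 3 each), a log2 fold change of -0.62 (SE 0.10, adjusted p = 0.013 in edgeR). Its groups did not overlap, and it was lowest in Sora-treated tumor 4, at 59.0 CPM, where the fibroblast sum was also lowest. The part of fibroblasts in it was not tested. Fn1, which encodes fibronectin and is the most abundant of the list, had a log2 fold change of 0.13 (SE 0.11, adjusted p = 0.607).

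Of 28 genes of TGF-beta signaling, a main inducer of the transition, 2 rose (7.14%) and none fell, with 19 above and 9 below 0, a median of 0.08, and 13 (46.4%) at an unadjusted p under 0.05. Ccn2, a matricellular protein and the most abundant per length of the list, was at 182, 261, and 238 CPM in control and 359, 444, and 408 CPM in Sora-treated tumors, a log2 fold change of 0.83 (SE 0.13, adjusted p = 0.0129 in edgeR). Smad7 was at 80.1, 95.4, and 81.7 CPM in control and 110.45, 129, and 129.8 CPM in Sora-treated tumors, a log2 fold change of 0.52 (SE 0.09, adjusted p = 0.0191). The groups were apart for both. Smad7 encodes an inhibitor of the pathway, so the calls of the list include a gene that opposes its name. The genes Ccn2 and Smad7 are both known to be transcribed in answer to TGF-beta, among other signals.

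**Figure D5:**
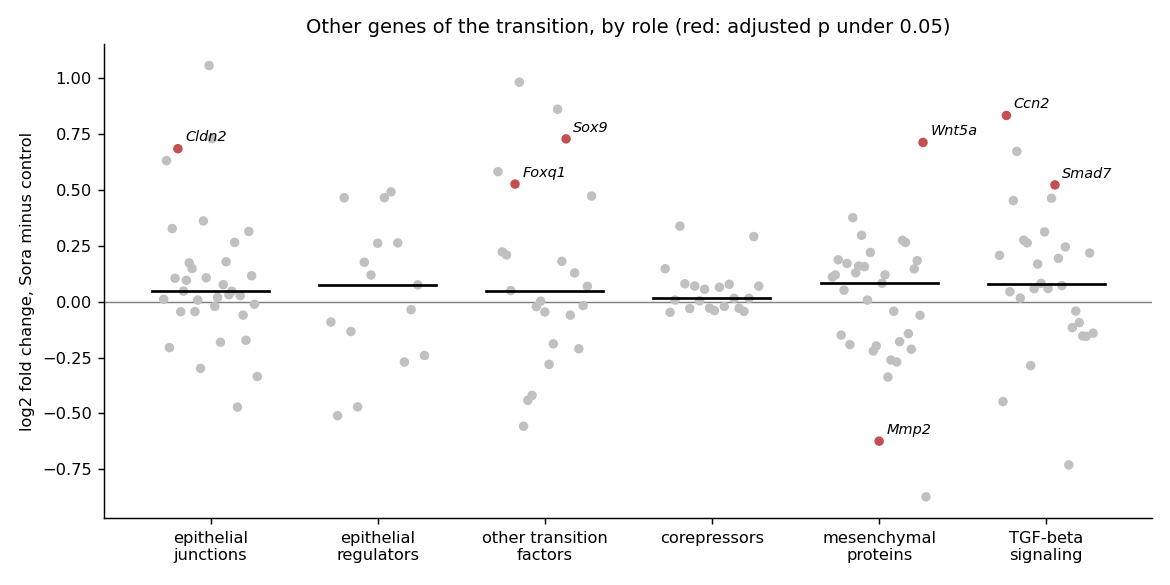
Log2 fold change (Sora minus control) of the 153 tested genes in the 6 lists, 1 point per gene in alphabetical order within a list, with red for an adjusted p under 0.05 and black lines for the list medians. The medians lie between 0.02 and 0.08, and the red points are 6 above and 1 below 0.

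The other marker lists did not separate the groups in their sums. Endothelial markers (12 genes) summed to 310.3 to 354 CPM in control and 246 to 335 CPM in Sora-treated tumors, with 9 of 12 below 0. Skeletal muscle markers (12 genes) summed to 233 to 329 and 281 to 384 CPM, with 11 of 12 above 0. None of either list was called by edgeR or DESeq2, with 2 endothelial genes (16.7%) and 1 muscle gene (8.33%) at an unadjusted p under 0.05 in edgeR, beside 17.2% of all genes. Hepatoma markers summed to 7313 to 9477 CPM in control and 7970 to 8650 CPM in Sora-treated tumors. Alb and Apoe made up most of this sum. Of the 12 hepatoma markers, 8 were above and 4 below 0 in log2 fold change, with a median of 0.28, 8 (66.7%, beside 17.2% of all genes) had an unadjusted p under 0.05, and 4 (33.3%, beside 3.29%) were called. Ttr (transthyretin) fell by 2.15 and Alb fell by 0.55 on the log2 scale (edgeR adjusted p = 0.00555 and 0.041). Hnf4a, a nuclear receptor that maintains the hepatocyte and its epithelial form, rose by 0.80, and Apoa1 rose by 1.03 (edgeR adjusted p = 0.013 and 0.047). DESeq2 and voom did not call Apoa1 (adjusted p = 0.0627 and 0.0806). Without Sora-treated tumor 4 the call of Ttr held (adjusted p = 0.0461), and those of Hnf4a (0.0816), Alb (0.175), and Apoa1 (0.152) did not. Those of Alb and Apoa1 were also lost without control tumor 3 or 4 or Sora-treated tumor 2, that of Apoa1 without control tumor 1, and that of Hnf4a without control tumor 4 (0.051). With a replicate block, the calls of Alb (0.236), Hnf4a (0.0788), and Apoa1 (0.062) were lost. With log2(FPKM + 0.1), those of Alb (0.106), Hnf4a (0.0707), and Apoa1 (0.17) were lost, and with log2(FPKM + 1) those of Alb (0.0697) and Apoa1 (0.127).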

How the data were processed

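The RNA of 6 Hepa1-6 tumors, 3 control and 3 treated with Sora, was sequenced. The authors deposited counts, whole numbers of reads per gene, for 5 of the tumors and FPKM, counts divided by gene length and library total, for all 6. The study's methods name GRCm38, Bowtie2, and an expectation maximization algorithm, whereas the submitters' processing notes name GRCm39, fastp, HISAT2, HTSeq, R 3.2.0, and DESeq2. The build behind the files is therefore open, and no gene coordinates are given except those of the RefSeq sequences (GRCm38.p6). Annotation and strand are not given in the sources used here.

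Counts of Sora-treated tumor 4 were computed as FPKM times gene length and total. All came within 0.001 of whole numbers, and the same step returned the deposited counts of each of the other 5 tumors, 20969 to 21229 genes each. In tumor 4, 20951 genes were recovered, and 342 genes without a length (512 reads) stayed at 0. Total counts were 31073830 to 36205814. Counting error was at most 9.90% of a value among the members (Snai2), and intervals of the fit also hold the spread between tumors.

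The 16513 genes that reached 10 counts in 3 or more tumors were compared by the quasi-likelihood F test of edgeR 4.0.16 (TMM, glmQLFit without the robust setting) in R 4.3.3, with Benjamini-Hochberg adjustment over all of them. Standard errors are the log2 fold change divided by the square root of F. The scripts were tested on simulated data. The alternatives were DESeq2 1.42.0, limma 3.58.1 voom, other scalings and filters, log2(FPKM + 1) and log2(FPKM + 0.1) with limma (all genes, or those reaching 1 FPKM in 3 or more tumors), a replicate block, unadjusted p, and leaving out each tumor. DESeq2 on the 5 deposited columns and the reference exon lengths of the members were added after seeing the data.

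The members and lists were chosen with earlier results of these data known, and 1 gene of the role lists is not reported here and was left out of their counts. Named were all members, in each of the 6 role lists the called genes, with fewer than 2 such genes those of smallest p up to 2, and the gene of highest mean FPKM, in each of the 6 marker lists (fibroblasts, endothelial cells, leukocytes, keratinocytes and skin, skeletal muscle, and hepatoma cells) up to 4 called genes, and the 3 genes most like Cdh1 and Vim among those with a mean of at least 1 CPM. Overlapping genes were read from GENCODE M21.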

Additional observations from a re-analysis of the deposited data

How the results depend on the processing

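The count of 1 called member (Cdh2) was unchanged with DESeq2, voom, the other scalings, and the other count filters. It was 0 with log2(FPKM + 1), log2(FPKM + 0.1), and log2(FPKM + 1) over all genes (adjusted p of Cdh2 0.0854, 0.114, and 0.206), 3 with unadjusted p, and 0 to 1 when single tumors were left out. Of the genes in the 6 role lists, 7 were called, against 17 with DESeq2, 14 with no filter, 0 with log2(FPKM + 0.1), 0 with log2(FPKM + 1) over all genes, 42 with unadjusted p, and 0 to 15 without single tumors. Over all genes, 543 were called, against 1194 with DESeq2, 1147 with no filter, 198 with log2(FPKM + 1), 38 with log2(FPKM + 0.1), 0 with log2(FPKM + 1) over all genes, 2844 with unadjusted p, and 5 (without Sora-treated tumor 4) to 1145 (without Sora-treated tumor 3) in the fits without single tumors. The cause of these differences was not tested.

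Replicate numbers 3 and 4 occur in both groups. Deviations from the group means correlated at r = -0.03 between the tumors numbered 3 and -0.07 between those numbered 4. Differently numbered pairs lay between -0.16 and 0.26. So few pairs cannot show whether same-numbered tumors shared a batch. With a replicate block, 0 members (adjusted p of Cdh2 0.324), 4 genes of the role lists (Cldn2, Foxq1, and Smad7 lost), and 125 of all genes were called.

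Among the members, signs turned for Vim and Twist1. Without single tumors, Vim ranged from -0.0375 to 0.12 and Twist1 from -0.22 to 0.15, and DESeq2 on the 5 deposited columns gave 0.14 for Twist1. Ctbp1 (0.0073) turned to -0.0042 with total counts, to -0.0034, -0.0035, and -0.0034 with log2(FPKM + 1), log2(FPKM + 0.1), and log2(FPKM + 1) over all genes, to -0.0012 with DESeq2 on the 5 deposited columns, and ranged from -0.0113 to 0.0260 without single tumors. Snai1 (0.22) was 0.13 and Snai2 (-0.37) was -0.14 with the replicate block. The order of levels kept 8 of 10 ranks with the median over tumors, as Cdh1 and Twist1 exchanged places, and 4 of 10 with the reference exon lengths. For the genes with the fewest reads (Snai2, Twist1, and Twist2, 102 to 267 per tumor), counting error was at most 9.90% of a value. With 3 tumors a group, the 95% intervals of all these genes held 0 and values of either sign.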
